A study of Mus musculus with 24 samples.

Results

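The genes described here are 9 transcription factors and cofactors that set the lineage of blood cells, taken by symbol from the 24982 genes of the count files: Gata1, Gata2, Zfpm1, Spi1, Runx1, Gfi1, Gfi1b, Ikzf1 and Irf8. All 9 were found, all 9 passed the filter on low counts, and their raw counts per library ran from 3 (Zfpm1) to 11854 (Spi1). Their messenger RNA was measured by sequencing in mouse eosinophils taken from the bone marrow at 4 stages of development, I to IV, that were separated by cell sorting. The donors, of a strain spelled CB57BL/6 in the labels, were either in steady state with no injection named or had received 400 ng of recombinant murine interleukin 33 (IL-33) into the peritoneum daily for 7 days, a cytokine known to raise eosinophil numbers. Stage and condition together make 8 groups of 3 libraries, called biological triplicates by the submitters, and each library pooled cells of 3 mice. No library therefore gives the value of 1 animal, and the sources used here do not give age or sex. Cells positive for Ly6G, CD45R, CD90.2 or NK1.1 were depleted first, and the sort used antibodies to CD117, CD200R3, Siglec-F, CD55, F4/80, CD29 and Pir-A/B.

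GATA1 and GATA2 are zinc finger proteins that bind the same short DNA motif. GATA2 is known for stem cells, progenitors, mast cells and basophils, and GATA1 for erythroid cells, megakaryocytes and eosinophils; in the erythroid lineage GATA1 takes the place of GATA2 on shared sites as cells mature. Eosinophils are lost in mice that lack a GATA motif pair in the Gata1 promoter region. Zfpm1 encodes FOG1, a cofactor that binds GATA factors and, in chicken progenitors, opposes the eosinophil fate. PU.1 (the product of Spi1) is an ETS family activator of myeloid genes and antagonises GATA1. RUNX1 is a core factor of blood stem and progenitor cells, GFI1 and GFI1B are related zinc finger repressors that recruit the LSD1 demethylase, Ikaros (Ikzf1) is a zinc finger factor of lymphoid and myeloid cells, and IRF8 drives monocyte and dendritic cell development and is also required in the eosinophil lineage.

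On the build GRCm38 (mm10), Gata1 lies at X:7959260-7978071 on the minus strand (ENSMUSG00000031162.14) and Gata2 at 6:88193891-88207032 on the plus strand (ENSMUSG00000015053.14). Gfi1b lies at 2:28609450-28621982 on the minus strand (ENSMUSG00000026815.14). All 9 are protein-coding genes in GENCODE M21, and none overlaps another gene of the count files, on either strand. The windows of 250 bases upstream of the annotated start were read from RefSeq sequence on GRCm38.p6, and those of 3 genes are printed. The printed windows are those of Gata2, which differed most between conditions over the stages, Gata1, its counterpart in the ratio, and Gfi1b. That of Gfi1b was picked after the search, as the window that holds a GATA motif. Each is written 5′ to 3′ on the strand of its gene, at X:7967911-7968160 for Gata1, 6:88193641-88193890 for Gata2 and 2:28621983-28622232 for Gfi1b, and capitals mark the GATA motif. The RefSeq start used for Gata1 lies inside the longer GENCODE gene.
Gata1: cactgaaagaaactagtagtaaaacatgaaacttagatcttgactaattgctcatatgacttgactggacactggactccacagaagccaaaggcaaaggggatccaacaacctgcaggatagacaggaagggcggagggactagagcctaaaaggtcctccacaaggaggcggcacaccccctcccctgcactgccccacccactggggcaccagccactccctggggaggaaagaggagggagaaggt
Gata2: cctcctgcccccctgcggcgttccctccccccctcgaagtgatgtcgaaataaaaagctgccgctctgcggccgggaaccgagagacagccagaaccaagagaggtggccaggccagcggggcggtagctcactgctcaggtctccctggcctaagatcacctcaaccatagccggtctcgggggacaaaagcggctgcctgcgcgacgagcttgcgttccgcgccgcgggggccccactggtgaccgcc
Gfi1b: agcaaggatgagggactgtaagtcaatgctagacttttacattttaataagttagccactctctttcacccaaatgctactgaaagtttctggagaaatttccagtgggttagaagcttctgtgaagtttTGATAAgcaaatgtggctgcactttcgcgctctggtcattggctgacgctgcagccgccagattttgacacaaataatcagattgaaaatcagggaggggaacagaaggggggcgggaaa
The GATA motif was searched on both strands as GATA with an A or a T before it and an A or a G after it, and was found in 26.5% of all 32536 promoter windows of that length. Among the 13 windows of 8 members, the Gfi1b window held 1 match, TGATAA from 120 to 115 bases before the start, and the other windows, Gata1 and Gata2 included, held none. AAATCA, the core bound by GFI1 and GFI1B, was in 12.3% of all windows and occurred in those of Gfi1b (34 to 29 bases before the start), Ikzf1 and Irf8. These matches describe the letters of the windows and not binding, which was not measured.

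A library held 8335138 to 14909453 gene counts, and levels are given in CPM, the count relative to the library's total, after scaling by the trimmed mean of M values. Reads assigned to no gene made up 17.8% to 30.5% of counted reads in steady state and 9.19% to 16.6% under IL-33. The libraries numbered 3 of the 4 steady state groups stood apart, with the early stress gene Jun at 3331 to 5018 CPM against 875 to 2142 CPM in the other 20 libraries and Atf3 at 164.6 to 1063 CPM against 1.34 to 52.0 CPM. Results that change without those 4 libraries are given both ways. The summed level of 10 eosinophil markers was 4033 to 5489 CPM (steady state stage IV) and 16260 to 41810 CPM in the other groups, and no marker of that list was at 0 in a whole group. Of the lists for other cells, 12 neutrophil markers summed to 2113 to 29130 CPM. In steady state stage IV that sum (10100 to 25820 CPM) lay above the eosinophil sum. In steady state stage III (18780 to 23170 CPM) it overlapped the eosinophil sum (16260 to 25250 CPM). Under IL-33 it was 2757 to 3958 CPM in stage III and 5826 to 10440 CPM in stage IV. Eosinophil sums there were 28890 to 34650 CPM and 21560 to 27720 CPM. The part of neutrophil RNA in the differences between conditions was not tested. The 11 erythroid markers, of another lineage that depends on GATA1, summed to 2.15 to 147 CPM. The 4 globin genes listed were at 0 in every group, and these zeros cannot be told from genes that were not counted. B cell markers summed to 24.2 to 99.7 CPM, and T and NK cell markers to 12.9 to 1180 CPM, mostly Nkg7.

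A gene was called when its adjusted p in the edgeR fit was under 0.05. In steady state, 1 of the 9 members was called from stage I to II (4.87% of the 12743 genes tested were called), 6 from II to III (34.6% of genes) and 3 from III to IV (9.23% of genes), and 6 differed between stages I and IV (43.8% of genes). Under IL-33 edgeR called no member from I to II (0.0942% of genes) or from II to III (0.0863% of genes), where 2 members in each step had an unadjusted p under the threshold, DESeq2 called 0 and limma-voom called 2. From III to IV under IL-33, 4 members were called (29.1% of genes), and 4 differed between I and IV (44.1% of genes). Between conditions, 3 members were called in stage I (4.06% of genes), 3 in stage II (8.03%), 5 in stage III (33.4%), 2 in stage IV (12.2%) and 6 in the mean of the 4 stages (38.1%). The step from II to III differed between conditions for 2 members (6.61% of genes) and that from III to IV for 2 (18.7% of genes), and the effect of IL-33 differed among stages for 5 members in the joint test (17.8% of genes). For the step from I to II edgeR called no member and no gene (0.00%), with 2 members at an unadjusted p under the threshold and 1 called by DESeq2 and by limma-voom. Comparisons of neighbouring steps, or of several stages with the same step, share libraries and are not independent of each other. The edgeR fit took all libraries as independent. If the libraries of a number in a condition share a pool, p-values over the mean of the stages may be too small, for every member.

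**Figure D1:**
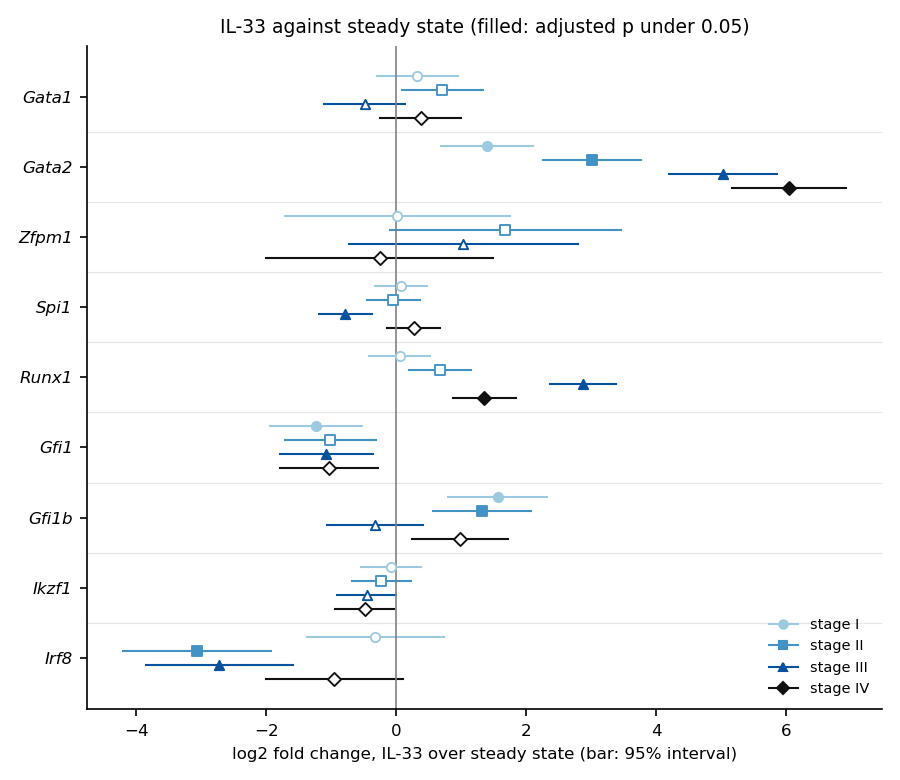
Log2 fold change of IL-33 over steady state (x axis) for each of the 9 genes (rows) in stages I to IV, with bars for the 95% interval; filled symbols passed the adjusted threshold. The 4 Gata2 symbols run from 1.39 in stage I to 6.04 in stage IV, while all 4 Gata1 symbols are open.

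Gata2 was the member that differed most between conditions in stages III and IV and in the mean of the stages. In steady state its level was 72.8, 65.2 and 53.8 CPM in the 3 libraries of stage I and 56.1, 66.7 and 17.4 CPM (stage II). It was 30.5, 12.9 and 21.5 CPM (stage III) and 9.98, 6.84 and 9.60 CPM (stage IV). The steady state means therefore stood lower in each later stage, from 63.9 CPM ± 9.57 (SD, n = 3) to 8.81 CPM ± 1.72, with overlapping libraries between I and II and between II and III. Under IL-33 the libraries held 189.9, 150 and 163 CPM (stage I) and 319, 429.6 and 382 CPM (stage II). They held 675, 792 and 644 CPM (stage III) and 666, 652 and 417 CPM (stage IV). The order of the 8 groups was thus steady state IV, III, II and I, then IL-33 I, II, IV and III, and the lowest IL-33 library (150 CPM) lay above the highest steady state library (72.8 CPM). In these bulk samples, fewer cells of a type and less RNA per cell cannot be told apart.

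Gata2 was higher under IL-33 by 2.63-fold in stage I (log2 1.39, SE 0.34, adjusted p = 0.0263), 8.07-fold in stage II (log2 3.01, SE 0.36, adjusted p = 2.16e-05), 32.5-fold in stage III (log2 5.02, SE 0.40, adjusted p = 2.57e-08) and 65.7-fold in stage IV (log2 6.04, SE 0.42, adjusted p = 1.87e-09). Over the mean of the stages the difference was 14.6-fold (adjusted p = 8.47e-13). That p takes the libraries as independent, though those of a number may share a pool. The size differed among stages (joint test, adjusted p = 7.43e-06), and the step from II to III differed between conditions by 2.01 on the log2 scale (SE 0.49, adjusted p = 0.0136). Between stages I and IV, Gata2 fell 7.26-fold in steady state (log2 -2.86, SE 0.37, adjusted p = 1.98e-06) and rose 3.45-fold under IL-33 (log2 1.79, SE 0.35, adjusted p = 0.000206). Within steady state, the fall from II to III was 2.16-fold (adjusted p = 0.0166) and that from III to IV was 2.46-fold (adjusted p = 0.0241). Under IL-33 the log2 differences from I to II (1.17, SE 0.34) and from II to III (0.90, SE 0.34) missed the adjusted threshold with edgeR (adjusted p = 0.453 and 0.569) and passed it with limma-voom (adjusted p = 2.5e-05 and 0.000539).

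The calls of Gata2 in stage I and in the last 2 steady state steps were lost in some settings, with the same direction in each. In stage I the adjusted p was 0.061 with library totals as scaling, 0.0716 and 0.0572 without IL-33 library 2 or 3, and 0.0921 and 0.113 without steady state library 2 or 3, and the log2 difference stayed between 1.21 and 1.47. For the step from II to III it was 0.0988 with limma-voom, 0.158 with those groups fitted alone, 0.0644 and 0.122 without stage II library 1 or 2 (log2 -0.955 and -0.76) and 0.0951 without stage III library 2 (log2 -0.844). For the step from III to IV it was 0.05 with library totals, 0.227 with limma-voom (log2 -1.34), 0.207 with the groups alone (log2 -1.28), 0.135 without stage III library 1 (log2 -0.97) and 0.137 and 0.0568 without stage IV library 2 or 3 (log2 -1.03 and -1.36).

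**Figure D2:**
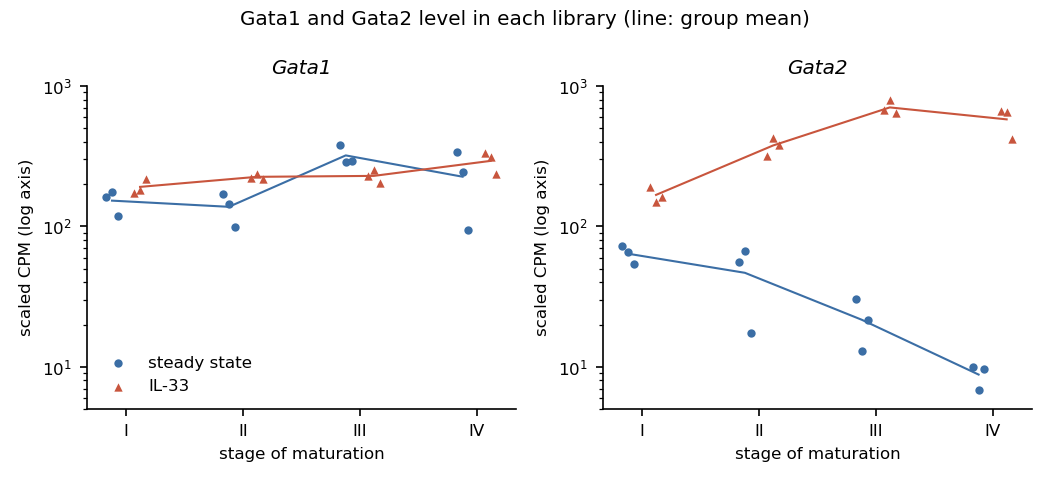
Scaled CPM on a log axis of Gata1 (left) and Gata2 (right) in each of the 24 libraries by stage, with circles for steady state, triangles for IL-33 and lines through the group means. Gata1 spans 95.0 to 378 CPM with the conditions interleaved, and every Gata2 library under IL-33 lies above every one of steady state.

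Gata1 spanned a narrower range than Gata2. In steady state it stood at 163, 176 and 119 CPM (stage I), 171, 144 and 99.1 CPM (stage II) and 378, 289.7 and 293.5 CPM (stage III). In stage IV its libraries held 337, 246 and 95.0 CPM, the widest spread of any group. Under IL-33 the levels were 172, 182 and 219 CPM (stage I), 221, 236 and 219 CPM (stage II), 229, 254 and 204 CPM (stage III) and 333, 309.9 and 236 CPM (stage IV). Each group overlapped its next neighbour in the order of the 8 means, which ran from steady state II (138 CPM ± 36.2, SD, n = 3) to steady state III (320.4 CPM ± 50.0). The rise from II to III in steady state was 2.33-fold (log2 1.22, SE 0.30, adjusted p = 0.00345), and the other steps of Gata1 missed the threshold in both conditions. Stage IV against I in steady state was 1.48-fold (log2 0.57, SE 0.30, adjusted p = 0.132). That difference passed the test without stage IV library 3 (log2 0.935, adjusted p = 0.00367) and without all 4 libraries numbered 3 (log2 0.807, adjusted p = 0.00663).

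IL-33 against steady state gave log2 differences of Gata1 between -0.48 (stage III) and 0.71 (stage II), none of which passed the threshold. The 95% interval of the mean over stages, -0.08 to 0.54 on the log2 scale, bounds that mean at 1.46-fold higher, and not the difference within a stage. The intervals were 0.09 to 1.33 in stage II and -1.10 to 0.14 in stage III. Without the third steady state libraries, Gata1 in stage III was lower under IL-33 (log2 -0.548, adjusted p = 0.0364). The step from II to III also differed between conditions in that setting (log2 -0.964, adjusted p = 0.0297; with all libraries log2 -1.19, SE 0.42, adjusted p = 0.094, and 0.0369 by limma-voom and 0.0378 with those groups alone). Without steady state stage IV library 3 the joint test of Gata1 passed (adjusted p = 0.0388), as did, without library 1 of that group, the difference of the step from III to IV (log2 1.26, adjusted p = 0.0351). From I to IV under IL-33 Gata1 had a log2 difference of 0.62 (SE 0.30, adjusted p = 0.101), with 0.0234 by limma-voom and 0.0318 with those groups alone.

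The ratio of Gata2 to Gata1 counts in the same library does not depend on how libraries are scaled. In steady state it was 0.446, 0.370 and 0.453 in stage I and 0.329, 0.464 and 0.175 in stage II. In stage III it was 0.0806, 0.0446 and 0.0733, and in stage IV 0.0296, 0.0278 and 0.101. Under IL-33 it was 1.10, 0.825 and 0.744 in stage I, 1.44, 1.82 and 1.74 in stage II, 2.95, 3.12 and 3.16 in stage III and 2.00, 2.11 and 1.77 in stage IV. Every IL-33 library was therefore above every steady state library, and the counts of Gata2 exceeded those of Gata1 in 1 of 3 libraries of IL-33 stage I and in all libraries of its later stages. Divided by the exon lengths of the 2 genes (5398 bases for Gata2 and 2438 for Gata1), the ratio was 0.0126 to 0.0456 in steady state stage IV and 1.33 to 1.43 in IL-33 stage III, so that per length Gata2 stood above Gata1 in that group alone.

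The geometric mean ratio was 2.08-fold higher under IL-33 in stage I, 5.55-fold in stage II, 47.9-fold in stage III and 44.7-fold in stage IV, and 12.55-fold higher over the stages. Each comparison gave p = 0.1 in a two-sided exact permutation test, the smallest that 3 against 3 values allow; over the stages, the 4 libraries of a number were averaged and moved together, since they may share a pool. A test added after seeing the data instead exchanged the condition among the libraries of each stage. For the Gata2 to Gata1 ratio over the stages it gave exact permutation p = 1.25e-05 (adjusted p = 6.25e-05). That is the smallest it allows, and was fixed once every IL-33 library lay above every steady state library. The added test also moved libraries that may share a pool separately, so it is not counted as support. Stage III was 4.66-fold lower than stage II in steady state and 1.85-fold higher under IL-33, each at that smallest p of 0.1 in the exact test (adjusted p = 0.15 over 6 steps). Stage IV was 1.57-fold lower than stage III under IL-33 (exact p = 0.1) and 1.47-fold lower in steady state (exact p = 0.4). Pooling the conditions, the step of the Gata2 to Gata1 ratio from III to IV had a log2 difference of -0.604 (exact permutation p = 0.075, adjusted p = 0.225 over 3 steps). Without steady state stage IV library 3, in which Gata1 was at 95.0 CPM, it was -0.907 and passed (exact permutation, adjusted p = 0.03).

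**Figure D3:**
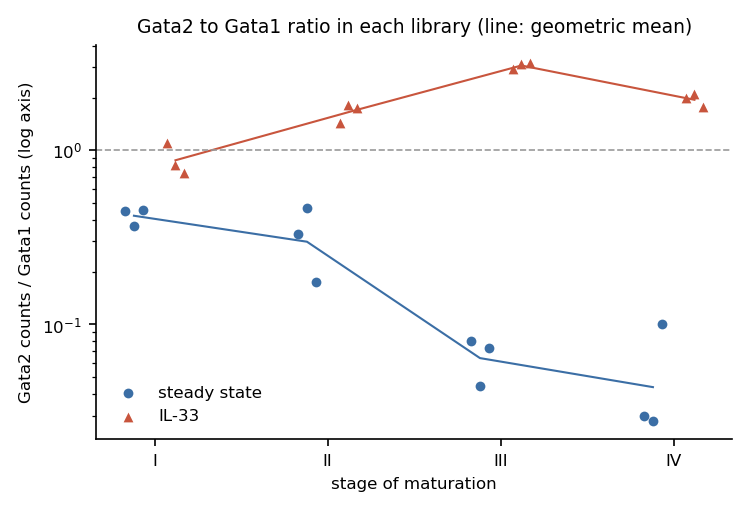
Ratio of Gata2 to Gata1 counts in each library (log axis) by stage, with circles for steady state, triangles for IL-33, lines through geometric means and a dashed line at 1. The ratio runs down to 0.0278 in steady state stage IV and up to 3.16 in IL-33 stage III.

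Beside Gata2, 7 genes of mast cells and basophils for which control by GATA2 has been described were counted. In steady state, 4 of them fell and 1 rose from stage II to III (Cpa3, Ms4a2, Fcer1a and Kit against Il4). In that step 34.6% of all genes were called, and the list median was -2.06 on the log2 scale against 0 for all genes. Under IL-33, Fcer1a was lower in stages I and II and Il1rl1, the IL-33 receptor gene, higher in stage II. In stage III 5 of the 7 were higher and 1 lower (33.4% of all genes called). In stage IV 5 were called, each higher (12.2% of all genes called). In stage I, where Gata2 was called, the list median was -0.01. The list median in stage IV was 2.89 against -0.04 for all genes. Cpa3, a mast cell carboxypeptidase, stood at 23.7 to 39.4 CPM (steady state stage III) and 1037 to 1058 CPM under IL-33. Ms4a2, the beta chain of the IgE receptor, stood at 2.86 to 8.14 CPM and 293 to 333 CPM in the same groups, which did not overlap. Hdc, the histamine-forming enzyme, was at 89.0 to 123 CPM (steady state stage IV) and 601 to 936 CPM under IL-33. Kit, the gene of the stained marker CD117, was not called in either stage, and its libraries overlapped in stage III (5.03 to 30.7 CPM in steady state and 6.57 to 19.4 CPM under IL-33) and in stage IV.

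A list of 11 basophil and mast cell markers, 4 of them shared with those genes (Cpa3, Ms4a2, Fcer1a and Hdc) and 1, Cd200r3, the gene of a stained marker, gives the cell type background of Gata2. Its summed level overlapped between conditions in stage I (2262 to 3280 CPM in steady state, 1961 to 2665 CPM under IL-33) and stage II (1447 to 3658 CPM and 1869 to 2387 CPM), where Gata2 did not overlap. It did not overlap in stage III (716.8 to 1071 CPM and 2611 to 2850 CPM) or stage IV (129 to 807 CPM and 2012 to 2969 CPM). Of the 11, 9 were tested. In stage III (33.4% of all genes called) and in stage IV (12.2%), 6 were higher and 1 lower under IL-33. The lower one was the basophil protease gene Prss34, looked up after its values were seen, at 124.9 to 235 CPM (steady state stage III) and 8.56 to 32.3 CPM under IL-33. The mast cell protease genes Mcpt4 and Tpsb2 were at 0 in every group. How far such cells enter the Gata2 values was not tested beyond these levels.

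Genes of eosinophils with described control by GATA1 did not move as one. The list holds Prg2 and Epx, granule proteins, and Ccr3 and Il5ra, the receptors for eotaxins and for IL-5. From II to III in steady state, where Gata1 rose, Ccr3 and Il5ra rose and Epx fell. In that step 34.6% of all genes were called, and the list median was 0.37 on the log2 scale against 0 for all genes. Epx was at 1477 to 3485 CPM (steady state stage III) and 18.6 to 26.5 CPM (stage IV), while Gata1 missed the threshold for that step. Under IL-33 in stage IV, Epx (4504 to 6901 CPM) and Prg2 (9495 to 11900 CPM against 234 to 687 CPM) were higher and Il5ra lower (79.9 to 146 CPM against 216 to 273 CPM). There 12.2% of all genes were called, and the list median was 2.06 against -0.04 for all genes. Gata1 was not called, but its libraries spread from 95.0 to 337 CPM in steady state stage IV, so the missing call says little. The part of Gata1 in the levels of these genes was not tested.

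Zfpm1, the FOG1 gene, stood low in every group and varied widely between replicates. It spanned 5.92 to 24.7 CPM (steady state stage I), 2.38 to 13.6 CPM (stage II), 0.318 to 11.3 CPM (stage III) and 3.57 to 15.5 CPM (stage IV). Under IL-33 it spanned 7.43 to 24.6 CPM, 9.20 to 35.5 CPM, 6.18 to 20.7 CPM and 4.00 to 12.9 CPM in the 4 stages. The library numbered 3 was the lowest of its group in 8 of 8 groups, and in steady state stage III it held 3 counts. No comparison of Zfpm1 passed the threshold in the main edgeR fit. The largest between conditions, 3.201-fold in stage II, had a 95% interval from 0.932-fold to 11-fold (adjusted p = 0.242). With replicate number added to the edgeR fit as a block, 3 passed, each higher under IL-33. These were stage II (log2 1.77, adjusted p = 0.0254), stage III (1.36, 0.035) and the mean of the stages (0.771, 0.0151). The labels do not say whether the numbers pair libraries.

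Among 12 tested partners of GATA complexes (of 13 in the list), 5 rose and 1 fell from II to III in steady state, where 34.6% of all genes were called, with a log2 median of 0.21 against 0 for all genes. From III to IV under IL-33, 3 rose and 2 fell (29.1% of all genes called), with a median of 0.45 against 0.01. Nfe2, the large subunit of the NF-E2 factor, rose 2.595-fold from II to III in steady state (adjusted p = 1.35e-05) and fell 2.08-fold from III to IV. Tal1, the partner that bridges GATA factors to LMO2 and LDB1, was at 0 counts in the 3 libraries of steady state stage III and at 3.37 to 4.80 CPM under IL-33 in that stage. Lmo2 was lower under IL-33 by 1.95-fold in stage II (adjusted p = 0.0356) and 2.22-fold in stage III (adjusted p = 0.00308).

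**Figure D4:**
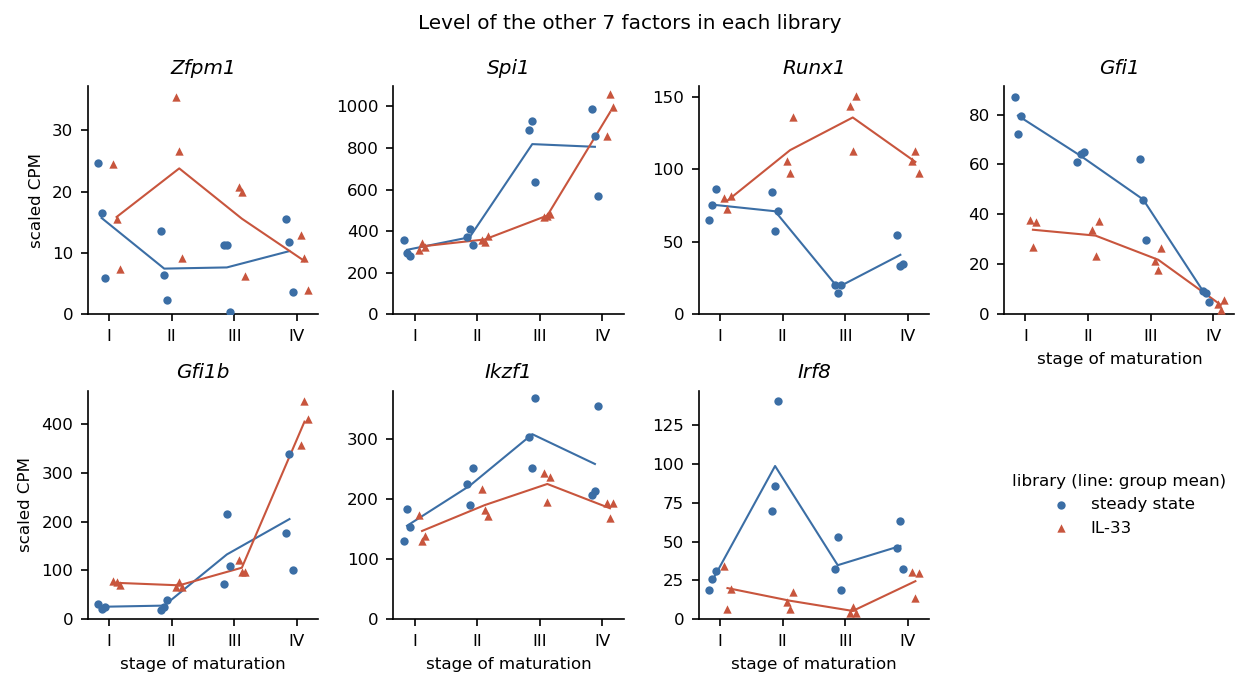
Scaled CPM (y axis, from 0, own scale per gene) of the other 7 genes in each library by stage, with circles for steady state, triangles for IL-33 and lines through group means. Spi1 and Gfi1b are highest in IL-33 stage IV (971 and 406 CPM), Runx1 is lowest in steady state stage III (18.5 CPM), Gfi1 is lowest in stage IV of both conditions, and Irf8 is highest in steady state stage II (98.7 CPM).

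Spi1 was the most abundant member per kilobase of exon in every group and reached its high level later under IL-33. Its steady state libraries held 355.5, 296 and 278 CPM (stage I), 371, 409 and 332 CPM (stage II), 886, 931 and 638 CPM (stage III) and 989, 859.6 and 568 CPM (stage IV). Under IL-33 they held 311, 343 and 326 CPM (stage I), 356, 347 and 376 CPM (stage II), 469, 472 and 484 CPM (stage III) and 855, 1059 and 998 CPM (stage IV). The high level was thus present from stage III on in steady state and in stage IV under IL-33. From II to III Spi1 rose 2.21-fold in steady state (log2 1.14, SE 0.20, adjusted p = 0.000122), while the log2 difference under IL-33 was 0.40 (SE 0.20, adjusted p = 0.942 with edgeR, 0.0181 with limma-voom and 0.0499 with the groups alone). From III to IV the log2 difference in steady state was -0.02 (SE 0.20, adjusted p = 0.976), and Spi1 rose 2.05-fold under IL-33 (log2 1.03, SE 0.20, adjusted p = 0.000371).

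That step differed between conditions by 1.05 on the log2 scale (SE 0.28, adjusted p = 0.00928). In stage III Spi1 was 1.72-fold lower under IL-33 (log2 -0.79, SE 0.20, adjusted p = 0.00366), with no overlap of libraries, and the net rise from I to IV was 2.599-fold in steady state and 2.97-fold under IL-33. With library totals as scaling the stage III difference was -0.516 (adjusted p = 0.0658), the difference of the step was 0.658 (adjusted p = 0.138) and the joint test gave 0.384 in place of 0.0345. The step from II to III differed between conditions by -0.74 (adjusted p = 0.111), and by -0.718 without the third steady state libraries, where it passed (adjusted p = 0.0429), as it did with limma-voom (0.0342) and without steady state stage III library 3 (0.0489). Over the mean of the stages Spi1 was called lower under IL-33 when the third steady state libraries were left out (log2 -0.292, adjusted p = 0.00718; with them -0.12, adjusted p = 0.354). The joint test was also lost without any 1 of 13 of the 24 libraries, with adjusted p from 0.0511 to 0.104. With no filter on low counts it was lost as well (adjusted p = 0.0699).

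Runx1 fell at stage III in steady state, while its log2 difference for that step under IL-33 was 0.26 (SE 0.23) and missed the threshold. Its steady state levels were 65.2, 75.3 and 86.0 CPM (stage I), 84.5, 57.6 and 70.9 CPM (stage II), 20.4, 14.8 and 20.4 CPM (stage III) and 54.6, 33.5 and 34.7 CPM (stage IV). Under IL-33 they were 80.4, 72.8 and 81.8 CPM (stage I), 106, 97.6 and 136 CPM (stage II), 143, 113 and 150.5 CPM (stage III) and 105, 113 and 97.0 CPM (stage IV). Stage III thus holds the lowest level of steady state and the highest mean of IL-33. In steady state Runx1 fell 3.83-fold from II to III (log2 -1.94, SE 0.24, adjusted p = 2.53e-06) and rose 2.21-fold from III to IV (log2 1.15, SE 0.23, adjusted p = 0.00299), a call lost with limma-voom (adjusted p = 0.0712) and with those groups alone (0.133). The step from II to III differed between conditions by 2.20 (SE 0.33, adjusted p = 0.000333) and that from III to IV by -1.52 (SE 0.33, adjusted p = 0.00201), both on the log2 scale.

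Runx1 was 7.32-fold higher under IL-33 in stage III (log2 2.87, SE 0.25, adjusted p = 4.06e-08) and 2.56-fold in stage IV (log2 1.36, SE 0.23, adjusted p = 0.000351). In stage I the log2 difference was 0.05 (95% interval -0.42 to 0.52), and in stage II it was 0.67 (SE 0.23, adjusted p = 0.0705). Between stages I and IV in steady state Runx1 fell 1.84-fold (adjusted p = 0.00353); without the 4 libraries numbered 3 the log2 difference was -0.645 (adjusted p = 0.0653). From III to IV under IL-33 the log2 difference of -0.37 (adjusted p = 0.239) passed with library totals (-0.617, adjusted p = 0.0425) and with limma-voom (adjusted p = 0.0398).

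Gfi1 and Gfi1b, related repressors, went in opposite directions with maturation. Gfi1 stood at 87.2, 72.3 and 79.3 CPM (steady state stage I), 61.1, 64.4 and 65.0 CPM (stage II), 62.3, 46.0 and 29.7 CPM (stage III) and 9.12, 8.69 and 4.94 CPM (stage IV). Its IL-33 libraries held 37.8, 27.1 and 36.8 CPM (stage I), 33.9, 23.2 and 37.4 CPM (stage II), 21.5, 17.6 and 26.5 CPM (stage III) and 3.96, 1.70 and 5.55 CPM (stage IV). The drop from III to IV was alike in both conditions, 6.02-fold in steady state (log2 -2.59, SE 0.36, adjusted p = 5.91e-05) and 5.84-fold under IL-33 (log2 -2.55, SE 0.37, adjusted p = 1.92e-05), and the 95% interval of their difference was -1.03 to 1.12 on the log2 scale.

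Under IL-33 Gfi1 was 2.12-fold lower over the mean of the stages (log2 -1.09, SE 0.17, adjusted p = 3.87e-05). The log2 differences were -1.23 in stage I (adjusted p = 0.0427), -1.01 in stage II (0.0689), -1.07 in stage III (0.0188) and -1.03 in stage IV (0.0664). The stage I call was lost when any 1 of its 6 libraries was left out (adjusted p 0.0524 to 0.24) and without the filter on low counts (0.0558). The stage III call was lost with library totals (0.0973), without IL-33 library 1 or 2 (0.058 and 0.0943) and without steady state library 1 (0.111, log2 -0.786), and that of stage IV passed without the third steady state libraries (adjusted p = 0.027), without IL-33 library 3 (0.0266) and with DESeq2 (0.0238). In stage II Gfi1 passed with DESeq2 (0.0136), limma-voom (0.0149) and the groups alone (0.0388).

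GFI1 is also a factor of neutrophils. Of 12 neutrophil markers, 11 were lower under IL-33 in stage II (8.03% of all genes called) and 10 in stage III (33.4%). Their sum was 7270 to 13450 CPM (steady state stage I), 23730 to 29130 CPM (stage II), 18780 to 23170 CPM (stage III) and 10100 to 25820 CPM (stage IV). Under IL-33 it was 4934 to 10130 CPM, 2113 to 4738 CPM, 2757 to 3958 CPM and 5826 to 10440 CPM in the 4 stages. The sum was thus higher in stage IV than in stage III under IL-33, while Gfi1 was lower, and its part in the Gfi1 difference between conditions was not tested.

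Gfi1b, the paralogue of erythroid cells and megakaryocytes, held 30.6, 20.2 and 25.1 CPM (steady state stage I) and 18.6, 25.7 and 38.7 CPM (stage II). It held 72.8, 216.5 and 109 CPM (stage III) and 177, 338 and 101 CPM (stage IV), a wide spread in both. Under IL-33 it held 77.8, 75.2 and 70.4 CPM (stage I), 66.4, 75.9 and 65.9 CPM (stage II), 122, 97.6 and 97.3 CPM (stage III) and 358, 447.6 and 411.5 CPM (stage IV). The start was therefore higher under IL-33, the levels met in stage III, and IL-33 stage IV stood above every other library. In steady state Gfi1b rose 4.79-fold from II to III (log2 2.26, SE 0.38, adjusted p = 7.72e-05) and 8.13-fold from I to IV; under IL-33 it rose 3.84-fold from III to IV (log2 1.94, SE 0.37, adjusted p = 0.000333) and 5.45-fold from I to IV.

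Between conditions Gfi1b was 2.95-fold higher under IL-33 in stage I (log2 1.56, SE 0.37, adjusted p = 0.0208) and 2.5-fold in stage II (log2 1.32, SE 0.37, adjusted p = 0.0269), with log2 differences of -0.33 in stage III (adjusted p = 0.5) and 0.98 in stage IV (adjusted p = 0.0764). The stage I call was lost with library totals (0.0569), without IL-33 library 2 (0.0768) and without steady state library 2 or 3 (0.105 and 0.0779), the stage II call without IL-33 library 1, 2 or 3 (0.058, 0.0944 and 0.058) and without steady state library 1 or 2 (0.0928 and 0.074). The stage IV difference passed without steady state library 2 (log2 1.48, adjusted p = 0.0136) and with limma-voom (0.0111), and the steady state step from III to IV without stage III library 2 (log2 1.18, adjusted p = 0.0449). The difference between conditions in the step from II to III, -1.65 on the log2 scale (adjusted p = 0.0523), passed with DESeq2 (0.0249), without the filter on low counts (0.0397), without the third steady state libraries (-1.99, adjusted p = 0.00862), without steady state stage II library 3 (0.022) and without stage III library 1 or 3 (0.0177 and 0.0445). That of the step from III to IV passed without steady state stage III library 1 (0.0264) or stage IV library 2 (0.013). The joint test (0.0363) was lost without any 1 of 11 libraries (0.0501 to 0.168), with library totals (0.159) and with limma-voom (0.0538). Of the megakaryocyte and platelet markers, Itga2b was the most abundant in every group, at 32.7 to 37.6 CPM (steady state stage IV) and 332 to 595.5 CPM under IL-33, while Vwf was at 0 in most groups. The part of such cells in the Gfi1b values was not tested.

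Among 6 tested corepressors of GFI1 proteins (of 7 in the list), 2 were called from stage I to IV in each condition. These were Hdac2 and Hdac3, histone deacetylases, and both fell. Of all genes, 43.8% were called between those stages in steady state and 44.1% under IL-33. Hdac2 fell 3.60-fold in steady state (adjusted p = 2.32e-06) and 3.89-fold under IL-33 (adjusted p = 8.84e-07). The list median from I to IV was -0.41 in steady state and -0.17 under IL-33, against -0.03 for all genes in each.

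Ikzf1 varied little, with group means from 147 to 308 CPM. In steady state it spanned 129 to 183.5 CPM (stage I), 189.7 to 252 CPM (stage II), 252 to 368 CPM (stage III) and 207 to 355 CPM (stage IV). Under IL-33 it spanned 129 to 173 CPM, 171 to 217 CPM, 195 to 243 CPM and 168 to 193 CPM, and each group overlapped its neighbour in the order of means. Its rise from I to IV in steady state was 1.66-fold (log2 0.73, SE 0.22, adjusted p = 0.0101) and under IL-33 the difference was 1.26-fold (adjusted p = 0.234). Over the mean of the stages it was 1.24-fold lower under IL-33 (log2 -0.31, SE 0.11, adjusted p = 0.029).

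Both calls of Ikzf1 were fragile. The first was lost without steady state stage I library 1 (0.0557), without stage IV library 3 (log2 0.435, adjusted p = 0.111), without all libraries numbered 3 (0.112), with library totals (0.162), with limma-voom (0.0677) and with the groups alone (0.0699). The second was lost without any 1 of 10 libraries (0.0523 to 0.068), without the third steady state libraries (0.0858) and with no filter on low counts (0.059).

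Irf8 was highest in steady state stage II and low under IL-33. Its steady state libraries held 18.5, 25.8 and 30.9 CPM (stage I), 69.9, 85.8 and 140.3 CPM (stage II), 32.4, 52.9 and 18.9 CPM (stage III) and 46.1, 62.9 and 32.4 CPM (stage IV). Under IL-33 they held 34.1, 6.20 and 19.6 CPM (stage I), 11.3, 6.52 and 17.7 CPM (stage II), 3.85, 8.04 and 3.85 CPM (stage III) and 30.2, 13.3 and 29.7 CPM (stage IV). No library of steady state stage II overlapped any other group. Under IL-33 Irf8 was 8.34-fold lower in stage II (log2 -3.06, SE 0.55, adjusted p = 0.0013) and 6.58-fold lower in stage III (log2 -2.72, SE 0.55, adjusted p = 0.000567). The log2 differences in stage I (-0.32, SE 0.51) and stage IV (-0.95, SE 0.51) missed the threshold (for stage IV, -1.45 and adjusted p = 0.0103 with limma-voom), and the effect differed among stages (joint test, adjusted p = 0.0188). From III to IV under IL-33 Irf8 rose 4.63-fold (log2 2.21, SE 0.54, adjusted p = 0.00329).

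In steady state Irf8 rose 3.94-fold from I to II (log2 1.98, SE 0.52, adjusted p = 0.0302) and fell 2.84-fold from II to III (log2 -1.51, SE 0.52, adjusted p = 0.0273). Without the 4 libraries numbered 3 neither was called (log2 1.83 and -0.957, adjusted p = 0.093 and 0.215). The rise was also lost with library totals (0.0624), with the groups alone (0.0719), and without stage I library 1 or 2 (0.132 and 0.101) or stage II library 3 (0.128). The fall was also lost with limma-voom (0.0505), without stage II library 3 (0.108) and without stage III library 1 or 3 (0.0728 and 0.109).

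The 14 markers of monocytes and dendritic cells, in which IRF8 is a main factor, did not follow Irf8 in every group. From I to II in steady state, 4 of 14 rose with Irf8 (4.87% of all genes called). The sum of the 14 was 542 to 608 CPM (steady state stage I) and 1420 to 1680 CPM (stage II). It was 1771 to 2415 CPM (stage III), where Irf8 fell, and 844 to 1178 CPM (stage IV). Under IL-33 the sums were 772 to 842 CPM, 1032 to 1242 CPM, 1179 to 1441 CPM and 2859 to 3118 CPM in the 4 stages. Against steady state, 4 of 14 were lower in stage II (8.03% of all genes called). In stage III 5 were lower and 1 higher (33.4% of all genes called). Ly6c2 had the largest share of the sum in each group. The part of such cells in the Irf8 values was not tested.

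From the ETS, RUNX, IRF and Ikaros families, 15 relatives were tested (of 16 in the list). From II to III in steady state 6 were called, each a rise, where 34.6% of all genes were called. The log2 median was 0.81 against 0 for all genes. From III to IV under IL-33, 4 rose and 1 fell (29.1% of all genes called). Irf2, an interferon regulatory factor, rose from I to IV in both conditions, 6.43-fold in steady state (adjusted p = 2.66e-08) and 7.97-fold under IL-33 (adjusted p = 7.53e-09). It was lower under IL-33 in stage III, 60.3 to 110 CPM against 27.3 to 32.3 CPM (adjusted p = 3.14e-05). Ikzf4, the Eos member of the Ikaros family, was at 0 to 0.0749 CPM in steady state stage I and at 0 counts in steady state stages II to IV. In the IL-33 libraries it was between 0.773 and 8.38 CPM. It passed the filter on low counts through the IL-33 groups alone, so its calls between conditions carry no weight beyond these levels.

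Of 16 other myeloid and progenitor factors tested (of 17 in the list), 5 rose and 4 fell from II to III in steady state (34.6% of all genes called), with a log2 median of -0.05 against 0 for all genes. Under IL-33 in stage III, 3 were higher and 6 lower (33.4% of all genes called), with a median of -0.95 against 0. Myb, a progenitor factor, fell from I to IV in both conditions, 52.9-fold in steady state (adjusted p = 1.47e-11) and 10.6-fold under IL-33 (adjusted p = 5.06e-09). Xbp1, a factor of secretory cells, was 4.58-fold higher under IL-33 in stage III (adjusted p = 5.54e-07) and 4.83-fold in stage IV (adjusted p = 7.58e-07).

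**Figure D5:**
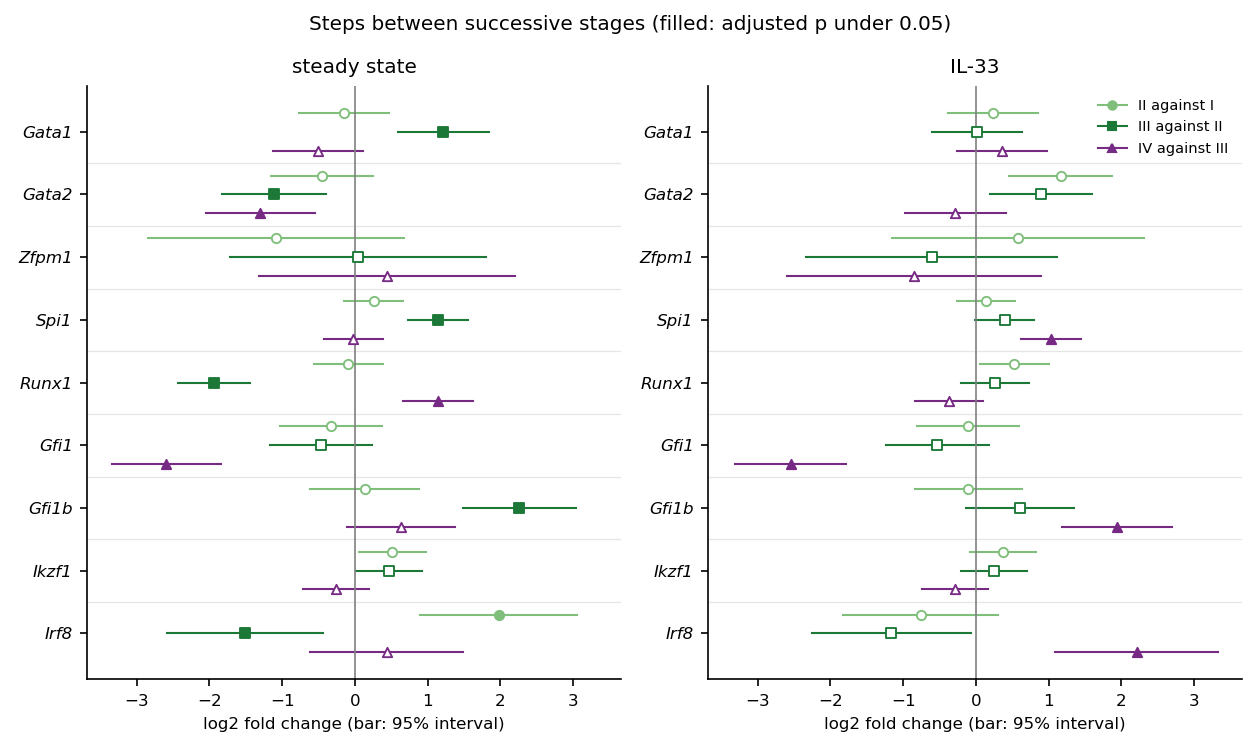
Log2 fold change between successive stages (x axis) of each gene in steady state (left) and under IL-33 (right), with bars for the 95% interval and filled symbols past the adjusted threshold. In steady state 6 of 9 genes are called at the step from II to III, and under IL-33 the called symbols are those of Spi1, Gfi1, Gfi1b and Irf8 at the step from III to IV.

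Levels of different genes were compared per kilobase of exon. On that scale Spi1 led in every group, with means from 115 CPM per kilobase in steady state stage I to 360.3 in IL-33 stage IV. Gata1 was second in steady state in stages I to III (62.6, 56.6 and 131 CPM per kilobase), while Gfi1b passed it in stage IV (112 against 92.7). In IL-33 stage III the second place was taken by Gata2 (130.4 CPM per kilobase, against 93.9 for Gata1) and in IL-33 stage IV by Gfi1b (222), ahead of Gata1 (120.1) and Gata2 (107). Runx1, Irf8 and Zfpm1 stayed below 15 CPM per kilobase in all groups. These lengths count all annotated exons, so a gene with long alternative exons, such as Runx1 with 12025 bases, is set lower.

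The genes whose pattern over the 8 group means was most like that of a member were ranked among 8362 genes by the root mean square difference of centred log2 values. For Gata2 they were Tmem44 (0.552), Rgs5 (0.587), Grm6 (0.622) and Kdelr3 (0.624), differences to be read against the spread of Gata2 itself over the groups, 2.14. Kdelr3, a receptor that returns proteins to the endoplasmic reticulum, ranged from 0.185 CPM in steady state stage IV to 86.0 CPM in IL-33 stage III. For Gata1, with a spread of 0.391, the nearest were Mia2 (0.108), Csnk2b (0.127), Yipf4 (0.134) and Ufd1 (0.138). Runx1 was nearest to Egr1 (0.208), an immediate early gene that ranged from 129 CPM in steady state stage III to 765 CPM in IL-33 stage III, and to Fbxo21 (0.215). The nearest genes were Auh and Pglyrp1 for Spi1, Olr1 and Lbp for Gfi1, Lpxn and Pcbp4 for Gfi1b, Fbxo38 and Rapgef6 for Ikzf1, F10 and Il6ra for Irf8 and Tnpo2 and Cherp for Zfpm1. Likeness over 8 means that share libraries and scaling is a description of pattern.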

How the data were processed

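RNA of sorted bone marrow eosinophils was made into libraries with SMART-Seq v4, per the labels' protocols, a kit that does not mark strand. The authors deposited raw counts, as whole numbers by gene symbol, for 24 libraries. The submitters' processing notes name STAR 2.6.1a, DESeq2 and the build mm10; the sources used here do not give the counting tool or annotation. Entries that name no gene (no feature, 9.19% to 30.5%; ambiguous, 1.73% to 2.6%) stayed out of library sizes. Depth was 8335138 to 14909453 gene counts, and replicates differed by far more than counting error (chi-square per degree of freedom 21.1 to 131).

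Counts were fitted in R 4.3.3 with edgeR 4.0.16: filter by group (12743 genes left), TMM scaling, 1 quasi-likelihood fit of 8 groups, Benjamini-Hochberg adjustment over all genes tested, threshold 0.05, and intervals at 95%. The log2 ratio of Gata2 to Gata1 was compared by two-sided exact permutation. Also run were limma-voom with sample weights (limma 3.58.1), DESeq2 1.42.0, relative log expression and library total scaling, no filter, the groups compared alone, a replicate block, and leaving out each library or the third steady state libraries. Replicate numbers paired libraries, by correlated deviations from group means (every pair over 0.1), in 3 steps: steady state stage II against I (0.105 to 0.264), IL-33 stage II against I (0.127 to 0.208) and IL-33 stage III against II (0.107 to 0.207); the labels give only the numbers. The fit was also run on simulated counts drawn independently for each library, which cannot show how shared pools would affect it.

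Symbols matched GENCODE M21 for 98.1% of genes, and promoters came from RefSeq on GRCm38.p6, from 250 bases before each start; Spi1 had no match. The members and gene lists were chosen with earlier results of these data known. All members are named, and from each partner list at most 3 called genes per direction and comparison; similar genes were the 4 nearest to Gata1 and Gata2 and the 2 nearest to the others, with a highest group mean of at least 20 CPM and 0.5 CPM added before logs.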

Additional observations from a re-analysis of the deposited data

Results flagged for a closer look

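The effect of IL-33 differed among stages, or a step between stages differed between conditions, for 5 of the 9 genes by an interaction test in edgeR with adjustment over all genes. Of all 12743 genes tested, 17.8% were called in the joint test. The step from II to III differed for 6.61% of genes and that from III to IV for 18.7%. For the step from stage II to III, IL-33 minus steady state was 2.01 on the log2 scale for Gata2 (adjusted p = 0.0136) and 2.2 for Runx1 (adjusted p = 0.000333). For the step from III to IV it was 1.05 for Spi1 (adjusted p = 0.00928) and -1.52 for Runx1 (adjusted p = 0.00201). The joint test over the 4 stages gave adjusted p = 7.43e-06 for Gata2, 2.51e-05 for Runx1, 0.0188 for Irf8, 0.0345 for Spi1 and 0.0363 for Gfi1b. The joint calls of Spi1 and Gfi1b were lost with library totals as scaling (adjusted p = 0.384 and 0.159). As given above, they were also lost when any of several single libraries was left out. With library totals the Spi1 difference of the step from III to IV was lost too (adjusted p = 0.138). Runx1 is the member called in both of those steps, with opposite signs; its log2 difference between conditions was 2.87 in stage III and 1.36 in stage IV.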

How the results depend on the processing

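No called result of the 9 genes changed direction under any alternative run. The members called in the 3 steady state steps numbered 10 of 27 results, and 6 with limma-voom or with the groups compared alone; under IL-33 they numbered 4, and 10 and 7 in those settings. The joint test called 5 members, 3 with library totals as scaling, and 3 to 6 when 1 library was left out. The Gata2 to Gata1 ratio from III to IV over both conditions was -0.604 on the log2 scale and ran from -0.907 to -0.442 when 1 library was left out. Over the stages the ratio differed by 3.65 between conditions on the log2 scale (exact permutation p = 0.1, libraries of a number moved together). It passed only with labels exchanged within each stage, and the other tests of it cannot reach the threshold. The test that passed was added after seeing the data, and the lack of overlap had fixed its outcome. It also moved libraries that may share a pool separately, so it is not counted as support. Relative log expression scaling changed 0 of 153 results and DESeq2 added 4 calls to 149. A replicate block added 13 calls and removed none; these were Gata1 from I to IV under IL-33 (adjusted p = 0.0343), its step differences from II to III (-1.24, 0.0167) and III to IV (0.991, 0.0303) and its joint test (0.0297), Zfpm1 higher under IL-33 in stage II (1.77, 0.0254), stage III (1.36, 0.035) and over the stages (0.771, 0.0151), Runx1 and Gfi1 in stage II (0.0468 and 0.0482), Gfi1 in stage IV (0.0465), Ikzf1 from II to III in steady state (0.0465), and the step differences from II to III of Spi1 (0.0265) and Gfi1b (0.0467). None of the 13 lay in the 3 steps where numbers paired libraries, so the block changed no call there. Correlations of pairs in the other stage steps were positive (0.0392 to 0.188); between conditions they ran from -0.0794 to 0.0605. With library totals the median log2 difference of all genes, near 0 otherwise, moved to between -0.395 (the step from III to IV, IL-33 minus steady state) and 0.306 (that from II to III). The share of higher calls then went from 73.5% to 56.3%, 49.7% to 30.6% and 38.5% to 57.0% in the 3 steady state steps and from 48.2% to 34.4% between steady state I and IV. It went from 45.0% to 29.7% and 48.0% to 36.9% for IL-33 stage IV against III and I, from 66.6% to 40.1%, 55.4% to 71.4% and 61.5% to 50.0% between conditions in stages I, III and IV, and from 67.9% to 88.6% and 45.0% to 22.1% for the differences of the last 2 steps. Counts of all genes called moved by over 1.5 times in steady state from I to II (620, 21 with the groups alone and 1165 with DESeq2, 289 to 675 without 1 library), II to III (4405, 1965 alone) and III to IV (1176, 245 alone and 1822 with DESeq2, 719 to 1230). Under limma-voom they moved from 12 to 905, 11 to 1089 and 3710 to 6620 in the IL-33 steps and from 518 to 2536 and 1550 to 2693 between conditions in stages I and IV. Stage II went from 1023 to 1542 with DESeq2, and the difference of the step from II to III from 842 to 1664 without the third steady state libraries. Without 1 library, the counts of the first 2 IL-33 steps fell as low as 2 and 0, those of stages I, II and IV as low as 109, 381 and 802, and that of the step difference by over 1.5 times. Gfi1 in stage IV and Zfpm1 had so few counts in some libraries that their folds are loosely set.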
